A study of Mus musculus with 11 samples.

Results

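The matrix proteases of the muscle spindle and their inhibitors are the subject here: the matrix metalloproteinases (MMP), the ADAMTS proteases (a disintegrin-like and metalloproteinase with thrombospondin motifs) and the tissue inhibitors of metalloproteinases (TIMP). Members were chosen by symbol alone, as every row of the count table named Mmp with a number, Adamts with a number, or Timp1 to Timp4. These are 37 of 22384 genes, namely 15 MMP, 18 ADAMTS and 4 TIMP genes. They were compared between spindle and muscle samples of the mouse deep masseter, a jaw muscle rich in spindles, by bulk RNA sequencing. Spindle samples were bundles of intact muscle spindles microdissected under fluorescence, and muscle samples were the extrafusal fibers next to them. Both kinds came from mice with a *Rosa26* tdTomato reporter that *Piezo2* EGFP-IRES-Cre switches on. The Cre also marks dorsal root ganglion neurons, spindle capsule and intrafusal fibers, so the dissection takes whole organs and not a sorted cell type. Neither kind was treated, and the age of the mice used for RNA is not given in the sources used here. Spindle libraries were made from 5 mice (9, 10, 12, 13 and 16), and a muscle library from each of these and from mouse 11, which makes 6.

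MMP and ADAMTS proteins are secreted or membrane-anchored enzymes that hold a zinc ion in the active site and cut collagens, proteoglycans and other proteins of the extracellular matrix. Most are made as inactive proenzymes. TIMP proteins bind the active site of the enzymes and block it, and TIMP2 has a second role, since it links pro-MMP2 to MMP14 at the cell surface, where MMP2 becomes activated. In skeletal muscle these enzymes are known for remodeling of the matrix around fibers, nerves and vessels. The spindle adds to this matrix a capsule of perineurial-like cells and a fluid-filled space rich in glycosaminoglycans.

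What the rule did not use is the sequence of the members. In the GENCODE vM21 transcripts on GRCm38, all 33 proteases encoded 1 copy of the zinc-binding site, in which the glutamate of catalysis and 3 histidines stand at fixed spacing, and 0 of 4 TIMP genes did. The site also has a codon between the middle and last histidine that is glycine in 27 proteases, asparagine in 5 and serine in 1. Of the 7 ADAMTS genes grouped as proteoglycanases, 6 had asparagine or serine there, as against 0 of the other 26 proteases. The 33 coding bases of the site lay within 1 exon in 15 of 15 MMP genes, while in 17 of 17 ADAMTS genes that were placed they were split over 2 exons, so that the coordinates of an ADAMTS site include an intron. The sites below belong to called members and to neighbors of *Adamts15* in sequence or position. Capitals mark the codons of the first histidine, the glutamate, the middle histidine, the variable residue and the last histidine.
Mmp2, chr8:92839279-92839311, plus strand: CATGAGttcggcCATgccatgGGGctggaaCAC
Mmp14, chr14:54437627-54437659, plus strand: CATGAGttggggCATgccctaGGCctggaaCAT
Mmp19, chr10:128795673-128795705, plus strand: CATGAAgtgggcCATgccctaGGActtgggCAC
Adamts6, chr13:104352847-104366809, plus strand: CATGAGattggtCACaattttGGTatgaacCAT
Adamts10, chr17:33538157-33538279, plus strand: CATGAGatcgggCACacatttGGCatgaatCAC
Adamts15, chr9:30911255-30911690, minus strand: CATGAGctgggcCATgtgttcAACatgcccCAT
Adamts20, chr15:94353678-94355296, minus strand: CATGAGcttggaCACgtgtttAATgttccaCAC
Adamts8, chr9:30952721-30953378, plus strand: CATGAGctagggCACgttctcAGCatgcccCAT
Adamts5, chr16:85878015-85887826, minus strand: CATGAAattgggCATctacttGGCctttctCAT
The first 5 sites have glycine at the variable codon, and *Adamts5* is the 1 proteoglycanase that shares it. *Adamts8* has serine. *Adamts15* and *Adamts20*, which moved in opposite directions in the comparison, both have asparagine.

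Promoters, taken as the 250 bases before the start of transcription in RefSeq (GRCm38), were found for 23 of the 37 members. Of the 12 members that differed between spindle and muscle, 4 had an entry, and these are shown because MMP promoters are textbook targets of AP-1 and ETS factors. Capitals mark matches to TGAGTCA (AP-1, both strands), AGGAAG (PEA3, an ETS site, both strands), GCGTGGGCG or GCGGGGGCG (EGR, both strands) or TATAAA (as a core promoter box, one strand).
Mmp3, chr9:7445572-7445821, plus strand: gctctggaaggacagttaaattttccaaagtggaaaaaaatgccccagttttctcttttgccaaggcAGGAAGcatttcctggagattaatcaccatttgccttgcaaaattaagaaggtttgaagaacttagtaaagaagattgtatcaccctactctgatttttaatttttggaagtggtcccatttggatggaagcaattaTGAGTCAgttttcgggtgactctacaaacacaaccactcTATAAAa
Mmp14, chr14:54431348-54431597, plus strand: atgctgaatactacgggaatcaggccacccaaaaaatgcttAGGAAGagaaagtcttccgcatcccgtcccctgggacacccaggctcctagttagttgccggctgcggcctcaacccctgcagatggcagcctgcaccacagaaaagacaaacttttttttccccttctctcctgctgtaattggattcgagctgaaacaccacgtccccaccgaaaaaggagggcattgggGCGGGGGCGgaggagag
Timp2, chr11:118355412-118355661, minus strand: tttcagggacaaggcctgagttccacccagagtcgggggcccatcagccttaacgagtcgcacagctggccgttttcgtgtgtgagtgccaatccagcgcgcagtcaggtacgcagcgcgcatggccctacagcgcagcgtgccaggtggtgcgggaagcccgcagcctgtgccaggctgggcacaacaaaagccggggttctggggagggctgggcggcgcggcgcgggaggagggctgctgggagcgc
Adamts20, chr15:94404351-94404600, minus strand: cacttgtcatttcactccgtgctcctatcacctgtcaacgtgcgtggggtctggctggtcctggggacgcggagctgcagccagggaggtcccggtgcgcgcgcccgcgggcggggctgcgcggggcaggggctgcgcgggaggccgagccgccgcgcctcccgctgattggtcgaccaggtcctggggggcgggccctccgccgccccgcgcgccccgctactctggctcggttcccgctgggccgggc
The *Mmp3* promoter held an AP-1, a PEA3 and a TATA match, that of *Mmp14* a PEA3 and an EGR match, and those of *Timp2* and *Adamts20* none of these letters. The TATA match of *Mmp3* began at -7 from the RefSeq start, while that of *Adamts1* began at -32. The RefSeq starts of *Adamts20* and *Timp2* lie inside the GENCODE genes, as do the 250 bases shown for each. Over all 23 promoters, AP-1 was found in 2 (*Mmp3*, *Mmp12*), TATA in 2 (*Mmp3*, *Adamts1*), EGR in 3 (*Mmp14*, *Mmp11*, *Adamts14*) and PEA3 in 9, against 4.43%, 6.04%, 5.80% and 32.3% of 13708 genes with a promoter of this length. A match is a string of letters and not a site shown to be used.

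Total counts per library lay between 8354260 and 19668038 in spindle and between 9690335 and 23430654 in muscle. Counts were scaled by TMM and tested with the quasi-likelihood test of edgeR across all genes, and a gene is called higher or lower in spindle when its mean normalized count is at least 5, its Benjamini-Hochberg adjusted p at most 0.05 and its log2 fold change at least 1 in size. A normalized count is the read count of a gene in a library of typical size. The tissue labels fit the fiber genes in part: the slow and developmental myosins of intrafusal fibers *Myh3*, *Myh6*, *Myh7* and *Myh7b* were called higher in spindle, and the fast-fiber genes *Myh1*, *Actn3* and *Mybpc2* lower, but the fast myosin *Myh4* was called higher, with 4401 ± 933 normalized counts in spindle and 394 ± 314 in muscle. The mitochondrial genome gave 22.6% to 38.2% of spindle reads and 16.7% to 24.8% of muscle reads. Odorant receptor genes, which are expressed in nasal sensory neurons, summed to 17.2 to 228 CPM (reads scaled to library size) in spindle, lowest in spindle 16, and to 9.22 to 63.3 CPM in muscle, highest in muscle 12. Of the 444 measured, 437 had a positive log2 fold change, with a median of 3.06. A mean normalized count of 5 was reached by 52 of them, and 40 were called higher and 0 lower. Fold changes of members with few reads stand beside this background, whose part in them was not tested. Replicates are separate mice, values after ± are SD over 5 spindle and 6 muscle libraries unless marked SE, and in whole tissue pieces fewer cells of a type and less RNA per cell cannot be told apart.

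Matrix proteases were more often higher in spindle than lower. Of the 37 members, 11 were called higher and 1 was called lower, while over all genes 11.0% were called higher and 1.80% lower. The 11 were *Mmp2*, *Mmp3*, *Mmp14*, *Mmp16*, *Mmp17*, *Mmp19*, *Adamts6*, *Adamts10*, *Adamts15*, *Adamts19* and *Timp2*, and the 1 was *Adamts20*. By class, 6 of 15 MMP, 4 of 18 ADAMTS and 1 of 4 TIMP genes were called higher. The median log2 fold change was 0.97 over the members, 1.10 over the MMP, 0.78 over the ADAMTS and 0.28 over the TIMP genes, beside 0.29 over all genes. In 8 members every spindle library was above every muscle library, which 9.15% of all genes showed, and in 0 members every spindle library was below, which 8.65% of all genes showed. A mean normalized count of 5 was reached by 33 members, and 6 further members had an edgeR adjusted p of 0.05 or less with a smaller fold change or, for *Adamts16*, a lower level.

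The scaling sets how many of the calls stand. With library size alone in place of TMM the median over all genes moved by over 0.1, to 0.60, and 17 members were called higher and 0 lower. Over all 22384 genes, 3522 were then called higher and 140 lower, beside 2470 and 403 with TMM. With the median gene set to 0, only 4 members were called higher, *Mmp19*, *Adamts6*, *Adamts15* and *Adamts19*, and *Adamts20* was called lower at -1.51. These 4 are the members called higher in every setting that was run. Of them, *Adamts19* had at least 5 reads in 1 library, the condition for being kept, only in spindle. With the median gene at 0, 1871 of all 22384 genes were called higher and 1206 lower, so the members called lie near the share over all genes. *Mmp2*, *Mmp14*, *Timp2* and *Adamts10* kept an edgeR adjusted p under 0.001 when the median gene was set to 0, and their log2 fold changes were then 0.90, 0.81, 0.83 and 0.83.

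**Figure D1:**
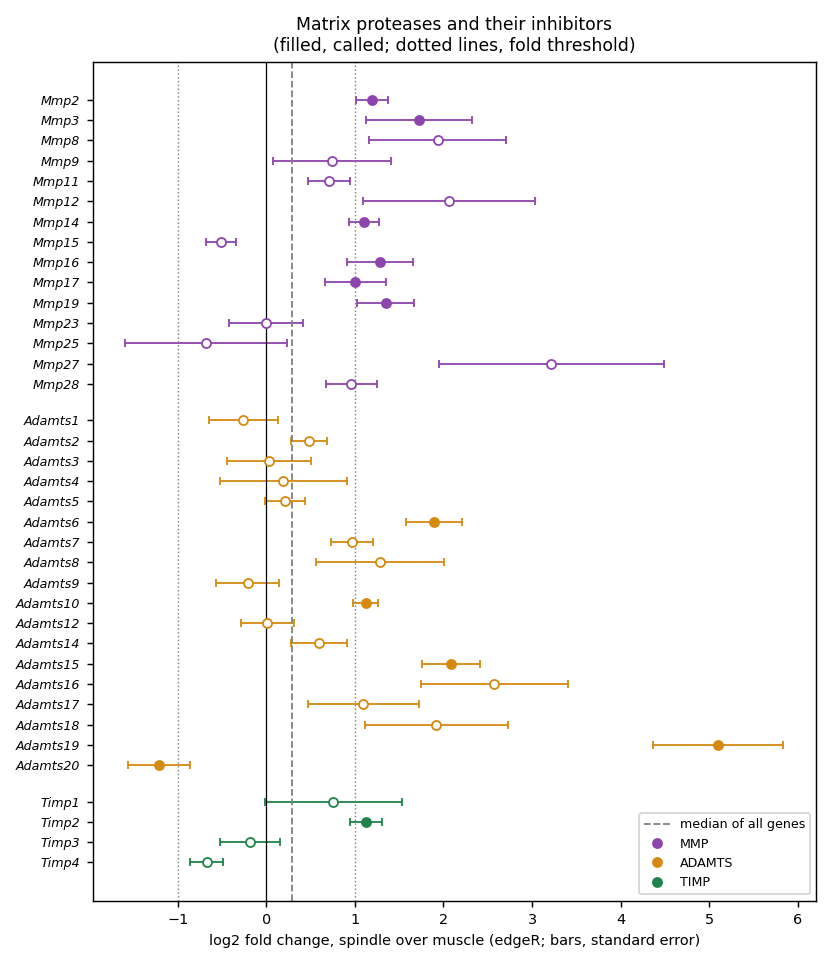
Log2 fold change (x axis, spindle over muscle, edgeR) of the 37 members (rows), with bars for the standard error and filled points for called genes. The dashed line is the median of all genes at 0.29 and the dotted lines the fold threshold. 11 filled points lie to the right of the upper threshold, up to *Adamts19* at 5.11, and *Adamts20* at -1.22 is the only filled point on the left.

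The gelatinase *Mmp2*, its activator *Mmp14* and the adaptor *Timp2* were all called higher in spindle, by like amounts. *Mmp2* (chr8:92827291-92853420, plus strand) cuts denatured collagen and basement membrane collagen. It had 2837, 1611, 1627, 1792 and 2222 normalized counts in spindle 9, 10, 12, 13 and 16, against 938, 865, 579, 1271, 911 and 736 in muscle 9, 10, 11, 12, 13 and 16. The lowest spindle library lay above the highest muscle library, and the difference was a log2 fold change of 1.19 ± 0.18 (SE, edgeR adjusted p = 6.99e-05). *Mmp14* (chr14:54431612-54445364, plus strand) encodes a collagenase anchored in the cell membrane. Its normalized counts were 343, 375, 387, 229 and 366 in the spindle libraries, in the same order, and 150, 132, 133, 244, 153 and 138 in the muscle libraries. Spindle 13 fell below muscle 12, so the groups overlapped by 1 library on each side, with a log2 fold change of 1.10 ± 0.17 (SE, edgeR adjusted p = 7.55e-05). *Timp2* (chr11:118301069-118355740, minus strand) was the most abundant member per length in both tissues, at a mean of 62.8 CPM per kb in spindle and 28.9 CPM per kb in muscle. It had 3874, 3581, 3382, 2822 and 5325 normalized counts in spindle, against 1854, 2370, 1117, 1935, 1769 and 1422 in muscle. The groups did not overlap, spindle 16 was the highest of all, and the comparison gave a log2 fold change of 1.12 ± 0.18 (SE, edgeR adjusted p = 9.62e-05). Without spindle 16 the log2 fold change of *Timp2* was 0.97, just under the fold threshold, at an edgeR adjusted p of 0.000262.

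Within a library the proportions of these 3 genes differed between the tissues by less than their spread. Per kilobase of exon, *Timp2* stood at 17.3 ± 3.5 times the level of *Mmp14* in spindle and at 17.5 ± 5.6 times in muscle (SD, n = 5 and 6). *Mmp2* stood at 10.8 ± 3.4 times *Mmp14* in spindle and 9.92 ± 1.43 times in muscle, and *Timp2* at 1.67 ± 0.38 times *Mmp2* in spindle and 1.74 ± 0.34 times in muscle. In each of these 3 ratios the range of one tissue covered most of the range of the other. The single libraries of *Timp2* over *Mmp14* ran between 13.4 and 22.3 in spindle and between 12.1 and 27.5 in muscle, where muscle 10 was the highest.

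Markers of several cell types moved with these genes. Over all genes 11.0% were called higher and 1.80% lower. Of the fibroblast markers 4 of 8 were called higher (*Pdgfra*, *Dcn*, *Lum*, *Mfap5*), and the 8 summed to 1326 to 2688 CPM in spindle and 472 to 1051 CPM in muscle. All 6 perineurial markers were called higher, at 233 to 390 CPM in spindle and 9.01 to 18.8 CPM in muscle, as were all 7 Schwann cell markers, at 485 to 946 CPM in spindle and 65.5 to 258 CPM in muscle. Macrophage markers were called higher in 7 of 8 cases, at 92.6 to 179 CPM in spindle and 31.5 to 63.3 CPM in muscle. Endothelial markers summed to 309 to 547 CPM in spindle and 328 to 542 CPM in muscle, and edgeR, DESeq2 and limma-voom called 0 of 6, with 1 (*Cldn5*) higher at an unadjusted p under 0.05. The part that these cells have in the levels of *Mmp2*, *Mmp14* and *Timp2* was not tested.

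**Figure D2:**
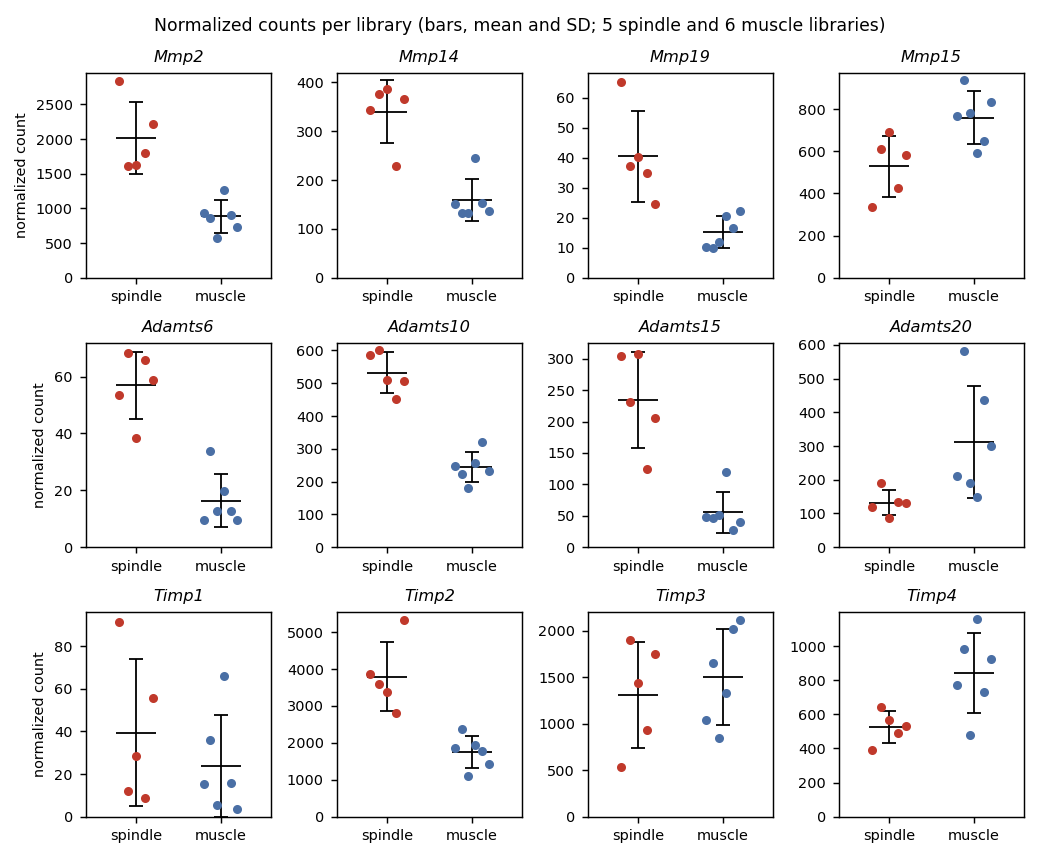
Normalized counts per library (y axis, from 0) of 12 members in 5 spindle libraries (left) and 6 muscle libraries (right) of each panel, with the mean and SD as bars. *Mmp2*, *Mmp19*, *Adamts6*, *Adamts10*, *Adamts15* and *Timp2* show no overlap between the tissues, while *Timp1* and *Timp3* overlap over most of their range.

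Among the other membrane-anchored MMP genes, *Mmp16* and *Mmp17* were called higher and *Mmp15* was not called. *Mmp15*, which like *Mmp14* encodes an enzyme with a transmembrane segment, was the most abundant of them. It had 338, 611, 693, 424 and 585 normalized counts in spindle, against 768, 941, 782, 591, 650 and 835 in muscle. Its log2 fold change was -0.51 ± 0.17 (SE), below the fold threshold in size at an edgeR adjusted p of 0.0216, and spindle 9, 13 and 16 lay below all muscle libraries. *Mmp16*, which encodes a further transmembrane enzyme, averaged 22.2 ± 7.64 normalized counts in spindle and 9.35 ± 2.79 in muscle (SD) without overlap, with a log2 fold change of 1.29 ± 0.37 (SE, edgeR adjusted p = 0.0115). Without spindle 12, its highest library, the value was 1.05 at an edgeR adjusted p of 0.0532. *Mmp17* encodes an MMP held by a lipid anchor. Its normalized counts were 19.0, 62.6, 23.3, 23.6 and 42.0 in spindle and 15.5, 24.0, 12.8, 13.4, 16.6 and 22.3 in muscle, so that spindle 9, 12 and 13 fell within the muscle range. The difference was a log2 fold change of 1.01 ± 0.34 (SE, edgeR adjusted p = 0.026), the closest of all calls to the fold threshold, and the call was lost in 12 of 20 settings, with a log2 fold change of 0.67 without spindle 10 and of 0.79 with the mouse as a block (edgeR adjusted p = 0.0954). Of the remaining anchored enzymes, *Mmp23* averaged 17.9 ± 7.41 in spindle and 19.0 ± 9.52 in muscle, and *Mmp25* had a mean normalized count below 5.

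*Mmp19* and *Mmp3* were the other called MMP genes. *Mmp19* (chr10:128790910-128800824, plus strand) encodes a secreted enzyme that cuts basement membrane proteins. It had 65.5, 37.4, 40.4, 34.8 and 24.5 normalized counts in spindle, against 10.3, 9.99, 12.0, 20.7, 16.6 and 22.3 in muscle, with spindle 9 as the highest library and no overlap. The difference was a log2 fold change of 1.35 ± 0.32 (SE, edgeR adjusted p = 0.00315). Other genes share 28.3% of its exon bases, and reads there cannot be assigned to one gene if counting ignored strand, which is not stated. *Mmp3* (stromelysin 1, which also activates other MMP proenzymes) had 29.3, 13.1, 34.1, 3.73 and 36.4 normalized counts in spindle and 6.89, 0, 2.4, 19.7, 6.78 and 5.2 in muscle. Spindle 13 lay below muscle 9, 12, 13 and 16, so these muscle libraries fell within the spindle range, and spindle 10 also lay below muscle 12. The comparison gave a log2 fold change of 1.73 ± 0.60 (SE, edgeR adjusted p = 0.0307), and the call was lost in 9 of 20 settings, among them without spindle 9, 12 or 16 and without muscle 9, 11, 13 or 16, at log2 fold changes between 1.49 and 1.69.

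The stromelysin-like *Mmp11* was below the fold threshold, with 116, 65.4, 61.0, 52.3 and 82.5 normalized counts in spindle, against 56.0, 40.0, 55.1, 35.2, 33.9 and 52.8 in muscle. Its log2 fold change was 0.71 ± 0.24 (SE, edgeR adjusted p = 0.0252), and spindle 13 lay within the muscle range. *Mmp28* (epilysin) averaged 72.3 ± 31.6 normalized counts in spindle and 37.5 ± 11.2 in muscle, and at 0.96 it was just outside the fold threshold in edgeR, while DESeq2 called it at 1.03. The gelatinase *Mmp9* and the neutrophil collagenase *Mmp8* were rare, at 9.76 ± 6.84 and 18.4 ± 14.1 normalized counts in spindle and 5.65 ± 3.32 and 5.54 ± 8.24 in muscle, and neither was called by edgeR (adjusted p = 0.38 and 0.0542), while limma-voom called *Mmp8* (2.26, adjusted p = 0.0289). The neutrophil markers *S100a9* and *Camp*, the 2 of that list in the table, summed to 1.39 to 3.13 CPM in spindle and 1.68 to 5.41 CPM in muscle, and *Camp* was called lower in spindle (-1.05, edgeR adjusted p = 0.012). The macrophage elastase *Mmp12* had 29 reads in all spindle libraries and 8 in all muscle libraries, and *Mmp27* had 21 and 3. For *Mmp27* the ratio of spindle to muscle reads, scaled for library size, was 9.17, with an exact interval of 2.74 to 48.0 (95%, counting error only), and most of its reads were in spindle 9. Genes were kept with at least 5 reads in 1 library, which *Mmp27* reached only in spindle. That selection can raise its ratio, which is given as a description and not as a test.

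No MMP gene was called lower by edgeR, DESeq2 or limma-voom, and 1, *Mmp15*, was lower at an unadjusted p under 0.05. *Mmp3*, *Mmp8*, *Mmp12* and *Mmp27* stand in one cluster on chromosome 9, with gaps between neighbors of 2910 to 102480 bases among the measured genes. Their log2 fold changes were 1.73, 1.94, 2.06 and 3.22, at mean normalized counts under 20 in each case, and edgeR called only that of *Mmp3*.

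Of the 4 ADAMTS genes grouped as fibrillin-binding, after their best known members *Adamts10* and *Adamts6*, 3 were called higher, with all spindle libraries above all muscle libraries in these 3. *Adamts10* (chr17:33524204-33553782, plus strand), which in humans is mutated in a short-stature syndrome of connective tissue, was the most abundant. It had 586, 602, 511, 450 and 508 normalized counts in spindle, against 249, 222, 181, 258, 321 and 233 in muscle. The spread within each tissue was small, and the difference was a log2 fold change of 1.12 ± 0.14 (SE, edgeR adjusted p = 5.22e-06). *Adamts6* (chr13:104287835-104496695, plus strand) encodes its closest relative. It had 53.4, 68.2, 38.6, 65.9 and 58.7 normalized counts in spindle and 9.48, 34.0, 12.8, 19.7, 12.8 and 9.66 in muscle, where muscle 10 came near spindle 12. The comparison gave a log2 fold change of 1.89 ± 0.32 (SE, edgeR adjusted p = 1.46e-04). *Adamts19* had 138 reads in spindle, present in 5 of 5 libraries, and 5 reads in muscle, 4 of them in muscle 12 and 1 in muscle 13. Its normalized counts were 60.3, 33.6, 31.4, 21.1 and 10.5 in spindle, highest in spindle 9 and lowest in spindle 16. The ratio of the summed reads, scaled for library size, was 36.2 (exact 95% interval 15.1 to 113, counting error only), and the fitted value was a log2 fold change of 5.11 ± 0.73 (SE, edgeR adjusted p = 2.88e-05). *Adamts19* had the 5 reads in 1 library needed to be kept only in spindle. That selection can raise both its ratio and its fold change. Odorant receptor reads were also lowest in spindle 16 and highest of the muscle libraries in muscle 12, but highest in spindle 12 and not spindle 9. A shared source was not tested. *Adamts17*, the relative of *Adamts19*, averaged 13.7 ± 11.2 normalized counts in spindle and 6.63 ± 3.78 in muscle and was not called.

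The proteoglycanases, which cut versican and aggrecan, held 1 gene that was called higher and the only member called lower. *Adamts15* (chr9:30899155-30922452, minus strand) had 305, 231, 308, 124 and 206 normalized counts in spindle, against 48.3, 46.0, 51.9, 119, 27.1 and 40.9 in muscle. Spindle 13 lay just above muscle 12, the highest muscle library, and the difference was a log2 fold change of 2.08 ± 0.33 (SE, edgeR adjusted p = 2.16e-04). *Adamts20* (chr15:94270163-94465418, minus strand), whose loss in mice leaves a belt of white coat, had 119, 191, 87.9, 134 and 130 normalized counts in spindle and 211, 582, 191, 150, 436 and 299 in muscle. Of the 5 spindle libraries 4 lay below every muscle library, and spindle 10 lay within the muscle range, with a log2 fold change of -1.22 ± 0.35 (SE, edgeR adjusted p = 0.0175). The call depended on muscle 10, without which the value was -0.98 (edgeR adjusted p = 0.0109), and it was also lost without spindle 10, 12 and 13 together (-1.30, edgeR adjusted p = 0.127) and with library size alone (-0.88). Per kilobase of exon, *Adamts15* stood at 1.70 ± 0.92 times *Adamts20* in spindle (0.80 to 3.04) and at 0.23 ± 0.24 times in muscle (0.05 to 0.69). The pair was chosen for its opposite calls, so this ratio only restates them.

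The other proteoglycanases were not called. *Adamts1* had 360, 409, 413, 748 and 483 normalized counts in spindle, against 349, 498, 308, 661, 1270 and 376 in muscle, where muscle 13 stood apart, and its log2 fold change was -0.26 ± 0.39 (SE, edgeR adjusted p = 0.614). *Adamts8*, which lies 20109 bases from *Adamts15* on chromosome 9 on the opposite strand, had 70.7, 162, 199, 47.3 and 370 normalized counts in spindle and 43.1, 178, 30.3, 147, 34.7 and 18.6 in muscle. Its spread over nearly the whole range in both tissues left the difference at 1.28 ± 0.72 (SE, edgeR adjusted p = 0.183). Like *Adamts8*, the tendon gene *Fmod*, which encodes a collagen-binding proteoglycan, was highest in spindle 16, lowest in spindle 13 and highest of the muscle libraries in muscle 10, while spindle 9 and muscle 9 ranked higher in *Fmod* than in *Adamts8*. *Fmod* had 2280, 1280, 2059, 179 and 10020 normalized counts in spindle and 4554, 6736, 205, 4276, 1185 and 172 in muscle. The other tendon markers, *Scx*, *Tnmd*, *Mkx* and *Thbs4*, were also highest in spindle 16 and lowest in spindle 13. Of the muscle libraries, *Mkx* was highest in muscle 10, but *Scx*, *Tnmd* and *Thbs4* were highest in muscle 12, unlike *Adamts8*. The 5 tendon markers summed to 98.3 to 1053 CPM in spindle and 44.5 to 682 CPM in muscle, 0 of them were called by edgeR, DESeq2 or limma-voom or had an unadjusted p under 0.05, and the part of tendon in the level of *Adamts8* was not tested. *Adamts5* averaged 177 ± 42.1 in spindle and 152 ± 61.6 in muscle, *Adamts9* 119 ± 59.2 in spindle and 142 ± 54.0 in muscle, and *Adamts4* 10.4 ± 9.6 in spindle and 9.72 ± 7.45 in muscle.

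None of the ADAMTS genes that process procollagen or cartilage oligomeric matrix protein was called by edgeR or limma-voom, while DESeq2 called *Adamts7*, and *Adamts2* and *Adamts7* had an unadjusted p under 0.05 in edgeR. *Adamts2*, the main remover of the amino-terminal propeptide of fibrillar procollagens, had 322, 427, 308, 322 and 592 normalized counts in spindle, against 257, 412, 189, 309, 323 and 224 in muscle. Its log2 fold change was 0.48 ± 0.20 (SE, edgeR adjusted p = 0.0638), with overlap. Its relatives *Adamts14* and *Adamts3* averaged 65.1 ± 21.0 and 20.1 ± 11.8 normalized counts in spindle and 45.2 ± 26.3 and 21.2 ± 14.0 in muscle. *Adamts7*, with 79.9 ± 24.3 normalized counts in spindle and 41.0 ± 9.41 in muscle, was just outside the fold threshold at 0.97 ± 0.24 (SE, edgeR adjusted p = 0.00386), and the DESeq2 value was 1.04. *Adamts12* averaged 30.6 ± 12.3 in spindle and 30.8 ± 6.5 in muscle. *Adamts16* and *Adamts18* were rare, at 9.08 ± 5.02 and 10.5 ± 8.63 normalized counts in spindle and 1.38 ± 1.94 and 2.62 ± 2.6 in muscle, and were not called.

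Of the inhibitors only *Timp2* was called. *Timp1*, the inducible inhibitor, had 91.3, 12.1, 28.7, 8.71 and 55.9 normalized counts in spindle, against 15.5, 36.0, 5.59, 66.2, 15.8 and 3.71 in muscle, with spindle 9 and muscle 12 highest. The tissues overlapped almost wholly, at 0.76 ± 0.77 (SE, edgeR adjusted p = 0.454). *Timp3*, which binds to the matrix and also inhibits ADAMTS enzymes, had 534, 1896, 1443, 937 and 1755 normalized counts in spindle and 1043, 1652, 846, 1333, 2016 and 2120 in muscle. Its difference was -0.19 ± 0.34 (SE, edgeR adjusted p = 0.676), and spindle 9 was the lowest of all. *Timp4*, best known from heart, had 390, 642, 570, 493 and 529 normalized counts in spindle and 770, 981, 478, 1159, 729 and 925 in muscle. It reached -0.67 ± 0.18 (SE, edgeR adjusted p = 0.00826), below the fold threshold in size, and its sign was negative in all 20 settings. No TIMP gene was called lower by edgeR, DESeq2 or limma-voom, and *Timp4* was the 1 that was lower at an unadjusted p under 0.05.

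*Timp1*, *Timp3* and *Timp4* each lie inside a synapsin gene on the opposite strand (*Syn1*, *Syn3* and *Syn2*), while *Timp2* does not. Annotated exons of *Timp3* and *Syn3* share 1733 bases, those of *Timp4* and *Syn2* share 90 and those of *Timp1* and *Syn1* share 0. The synapsins averaged 3.67 ± 3.95, 24.6 ± 15.2 and 19.1 ± 12.1 normalized counts in spindle for *Syn1*, *Syn2* and *Syn3*, and 4.16 ± 3.1, 33.1 ± 10.9 and 11.5 ± 4.58 in muscle. edgeR, DESeq2 and limma-voom called 0 of the 3, and 0 had an unadjusted p under 0.05. Whether counting used strand is not stated, so reads in the shared bases of *Timp3* and *Syn3* cannot be told apart.

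Proteases were then set against inhibitors within each library. Levels per kilobase of exon were summed over each class. The MMP sum was 69.7, 48.6, 50.0, 46.1 and 60.8 CPM per kb in spindle 9, 10, 12, 13 and 16, against 32.0, 32.8, 24.5, 37.6, 30.0 and 29.0 CPM per kb in muscle 9, 10, 11, 12, 13 and 16. The tissues did not overlap in this sum, to which *Mmp2* added more than any other MMP gene in each library. The ADAMTS sum averaged 22.2 ± 2.4 CPM per kb in spindle (19.8 to 25.9) and 17.8 ± 6.4 in muscle (10.6 to 26.8), with overlap. The TIMP sum averaged 81.8 ± 18.8 CPM per kb in spindle (60.1 to 112) and 51.7 ± 12.0 in muscle (30.8 to 65.6), where spindle 13 fell within the muscle range.

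The share of the TIMP genes in the total differed between the tissues by less than the spread between replicates. This share was 47.0%, 53.6%, 51.5%, 47.2% and 56.3% in spindle, against 51.9%, 54.4%, 46.8%, 50.7%, 48.9% and 54.4% in muscle. The means were 51.1% ± 4.1 in spindle and 51.2% ± 3.0 in muscle (SD, n = 5 and 6), and the difference of -0.057 percentage points was small beside the spread between replicates of 3.59. With ADAMTS genes as the only proteases the sign turned, to 3.62 percentage points. With MMP genes as the only proteases the difference stayed negative and was larger in size. The small value for both classes together lies between these opposite differences. What differed was the makeup of the TIMP sum. *Timp2* made up 76.7% ± 3.6 of it in spindle (72.1% to 80.9%) and 56.1% ± 6.1 in muscle (46.4% to 63.3%), without overlap. This restates the call of *Timp2* beside the uncalled changes of the other TIMP genes and is not a further result. The share is one of RNA per length and not of protein or activity.

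**Figure D3:**
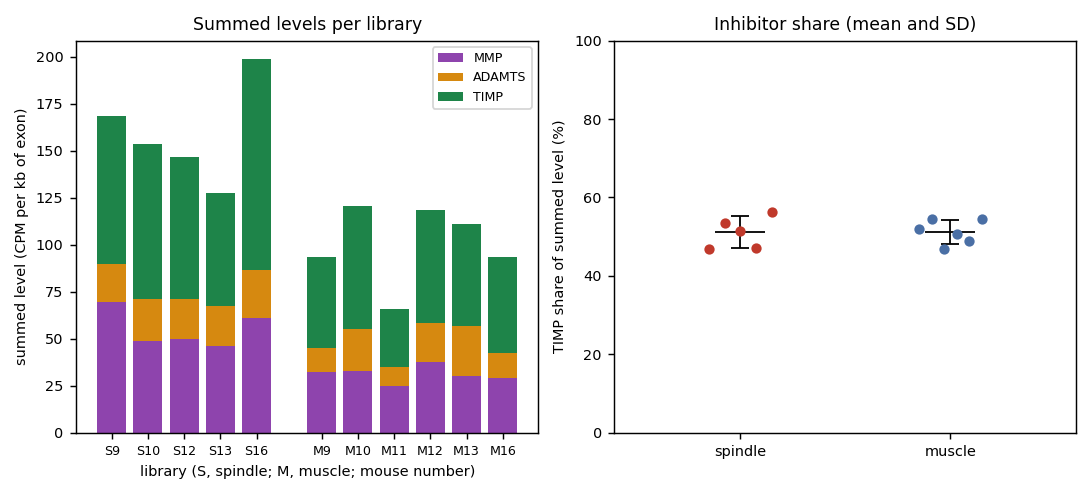
Left, levels (y axis, CPM per kb of exon) summed over MMP, ADAMTS and TIMP genes in each library (S, spindle; M, muscle; mouse number). Right, the share of the TIMP genes in this sum (y axis, percent), with mean and SD, which lies between 47.0% and 56.3% in spindle and between 46.8% and 54.4% in muscle.

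Other genes of the pathway were read from the same fit, in which 11.0% of all genes were called higher, with a median log2 fold change of 0.29. Among the ADAMTS-like proteins, which have the ancillary but not the catalytic domain, 4 of 7 were called higher (median log2 fold change 1.12). *Thsd4*, which encodes a fibrillin-binding ADAMTS-like protein, had 210, 217, 170, 119 and 149 normalized counts in spindle, against 22.4, 44.0, 7.19, 26.9, 21.1 and 14.9 in muscle, with a log2 fold change of 3.02 ± 0.30 (SE, edgeR adjusted p = 3.63e-07). *Adamtsl1*, *Adamtsl2* and *Adamtsl3* had log2 fold changes of 1.19, 1.13 and 1.12. Every spindle library was above every muscle library in *Adamtsl1* and *Adamtsl3* but not in *Adamtsl2*, whose call was lost without spindle 10 or 12 or muscle 9, 11 or 16, at 0.95 to 1.04. *Adamtsl5*, with 1617 ± 138 normalized counts in spindle and 898 ± 106 in muscle, did not overlap either but stayed below the fold threshold at 0.85.

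Enzymes that process collagen and matrix precursors followed in part. Of the tolloid proteases and their enhancers 2 of 5 were called higher (median 1.20): *Pcolce*, which speeds the removal of the carboxy-terminal propeptide of procollagen, with 1816 ± 209 normalized counts in spindle and 795 ± 274 in muscle, and *Tll1* with 35.6 ± 11.4 in spindle and 10.8 ± 1.11 in muscle. *Bmp1*, the tolloid protease itself, stood at 0.95 ± 0.13 (SE) without overlap and was not called by edgeR, while DESeq2 called it at 1.02. The enhancer *Pcolce2*, with 265 ± 34.2 normalized counts in spindle and 141 ± 31.4 in muscle, reached 0.91 (edgeR adjusted p = 2.98e-04), below the fold threshold. Of the catalytic ADAM proteases 2 of 9 were called higher, *Adam12* at 1.95 and *Adam33* at 1.33 (list median 0.49), and *Adam15* reached 0.77. In a list this short, 2 of 9 is not far from the 11.0% called higher over all genes. The proprotein convertases, which cleave many proenzymes, had a median of 0.14, and edgeR called 0 of 4, DESeq2 0 and limma-voom 1. The smallest adjusted p there was that of *Pcsk5* at 0.92 ± 0.33 (SE, edgeR adjusted p = 0.0381), the only one under 0.05 before adjustment, which was the gene limma-voom called, followed by *Pcsk6* at 0.27 and *Furin* at -0.13.

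Among serine and cysteine protease systems, *Plat*, the tissue plasminogen activator, was called higher with 291 ± 78.9 normalized counts in spindle and 131 ± 21.4 in muscle. It was 1 of 6 genes of plasminogen activation, near the 11.0% called higher over all genes. The urokinase gene *Plau* and the inhibitor *Serpine2* had log2 fold changes of -0.55 and -0.52, with edgeR adjusted p of 0.0932 and 0.00516. Of 5 genes for cathepsins and cystatin C, *Ctsk* (1.58) and *Ctss* (1.95) were called higher, and *Cst3*, the inhibitor, stood at 0.35. Non-TIMP inhibitors and regulators were called higher in 3 of 8 cases (median 1.50), beside 11.0% and a median of 0.29 over all genes. *Reck*, a membrane-anchored inhibitor of MMP2, MMP9 and MMP14 that is unrelated to the TIMP family, had 188, 274, 217, 226 and 264 normalized counts in spindle, against 84.5, 95.9, 59.9, 93.1, 99.5 and 94.4 in muscle. The tissues were far apart, at a log2 fold change of 1.42 ± 0.16 (SE, edgeR adjusted p = 1.92e-06). The proteoglycans *Spock2* and *Spock3* had 1.45 and 1.90, the second of which was no longer called without spindle 10 (1.65). The receptor gene *Lrp1*, whose protein takes up proteases and their inhibitors, was below the fold threshold at 0.79 (edgeR adjusted p = 0.00224).

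The substrates of these enzymes were called higher in 3 of 11 measured cases (median 0.61), beside 11.0% and a median of 0.29 over all genes. *Vcan*, the large proteoglycan that ADAMTS1, ADAMTS5, ADAMTS9, ADAMTS15 and ADAMTS20 can cut, had 446, 468, 284, 274 and 192 normalized counts in spindle, against 37.1, 75.9, 30.3, 78.7, 66.3 and 43.8 in muscle. This was a log2 fold change of 2.61 ± 0.28 (SE, edgeR adjusted p = 2.95e-06), and spindle libraries 9 and 10 were highest. *Eln*, elastin, had 3583, 5409, 2629, 2834 and 2847 normalized counts in spindle and 168, 290, 204, 240, 286 and 311 in muscle. It showed the largest change of this list, a log2 fold change of 3.79 ± 0.21 (SE, edgeR adjusted p = 1.73e-10). *Fbn2*, fibrillin 2, stood at 2.34 ± 0.47 (SE), while *Fbn1* (0.89) and *Col3a1* (0.99) were below the fold threshold in edgeR, the second being called by DESeq2 (1.06) and limma-voom (1.02), and *Col1a1* averaged 6238 ± 3376 normalized counts in spindle and 6403 ± 5536 in muscle. No gene of the pathway lists was called lower by edgeR, DESeq2 or limma-voom, and 3 (*Adam9*, *Plau*, *Serpine2*) were lower at an unadjusted p under 0.05.

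**Figure D4:**
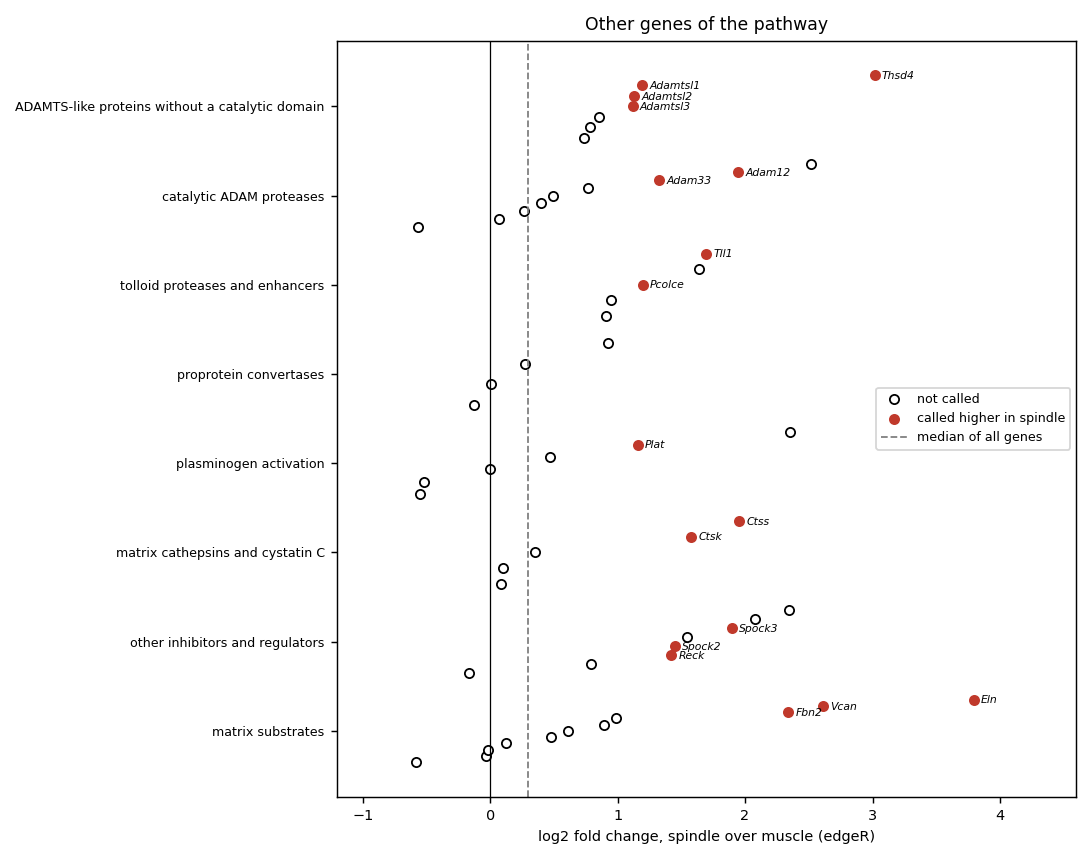
Log2 fold change (x axis, spindle over muscle, edgeR) of the other genes of the pathway, by list (rows), with filled points for genes called higher in spindle and open points for genes not called. The dashed line is the median of all genes at 0.29. Called genes reach from 1.12 (*Adamtsl3*) to 3.79 (*Eln*), and the row of proprotein convertases has none.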

How the data were processed

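Counts were taken as the authors deposited them: raw read counts per gene and library, with no pooling of samples. Per the paper's methods and the submitters' processing notes, polyadenylated RNA was sequenced single-end, reads were mapped to GRCm38 with STAR 2.4.2a in the UTAP pipeline with GENCODE annotation, uniquely mapped reads were counted, and genes with at least 5 reads in 1 library were kept. Whether counting used strand is not given in the sources used here. The authors' 22 further per-library columns (normalized and regularized log values) and their comparison columns (mean level, fold change, p-values and calls from DESeq2 1.16.1) were not used. One spindle sample that the paper left out for few aligned reads was not analysed here.

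All 22384 genes were fitted with edgeR 4.0.16 (TMM, robust quasi-likelihood test) in R 4.3.3, without a term for the mouse since the methods name none, and adjusted over all genes by Benjamini-Hochberg. Calls used the study's thresholds (mean normalized count at least 5, adjusted p at most 0.05, log2 fold change at least 1 in size). Members come from a rule on symbols, and the members and gene lists were chosen with earlier results of these data known. Per-library values are given for called members whose mean normalized count reached 20, the 4 TIMP genes and the 4 MMP and 4 ADAMTS genes highest per length. In each pathway list the called genes and the 3 with the smallest adjusted p are named. Levels per length are TMM-scaled CPM divided by the union of exons in GENCODE vM21, an earlier release than the authors', matched by symbol for 37 of 37 members. Promoters are from RefSeq (GRCm38). The fit was tested on simulated counts with known changes. Alternatives were DESeq2 1.42.0, limma-voom (limma 3.58.1), other scalings, a filter on low counts, thinning, the mouse as a block and leaving out libraries. Intervals cover counting error only.

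Spindle and muscle of 1 number come from 1 mouse, so the design pairs them. Deviations from the group means were correlated within mice over the 12557 genes whose mean count reached 20, at r of 0.083 (mouse 9), 0.31 (10), 0.17 (12), 0.26 (13) and 0.29 (16). In 4 of 5 mice the best match of the spindle library was its own muscle library. Libraries of one group differed by a chi-square per gene of 19.8 or more, so no library was a copy.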

Additional observations from a re-analysis of the deposited data

Results flagged for a closer look

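Of 36 groups of libraries checked for 1 library far from the rest, by its gap to the next library over the range, 4 held one. A rate of about 1 in 20 would hold only for independent, normal values. These counts come from the same libraries, so the rate by chance is not known. *Mmp14* was apart in both tissues: its lowest spindle library, spindle 13, had 229 normalized counts against 343 in the next, and its highest muscle library, muscle 12, had 244 against 153 in the next. *Adamts1* had 1270 normalized counts in muscle 13 and 661 in the next muscle library. *Adamts15* had 119 normalized counts in muscle 12 and 51.9 in the next muscle library. Muscle 12 was also the muscle library with the most odorant receptor reads. Without spindle 16 and muscle 12 together, 11 members were again called higher and 1 lower, but *Mmp17* lost its call (0.86) and *Adamts18* gained one (2.68). Over all 22384 genes this fit called 2948 higher and 602 lower, more than the 2470 and 403 with all libraries.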

How the results depend on the processing

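Of the 12 called members, 4 kept their call in all 20 settings, and 18 of the 25 others were not called in any. The counts of members called higher, 11 in all (6 MMP, 4 ADAMTS and 1 TIMP), moved with the scaling: with library size alone they were 17 in all and 7 ADAMTS, and with the median gene at 0 they were 4 in all, 1 MMP and 0 TIMP. Over all 22384 genes, the same scalings called 3522 and 1871 higher, in that order. The 1 member called lower, an ADAMTS gene, was lost (count 0) under scaling by library size and in the fit without spindle 10, 12 and 13 together. Leaving out 1 library at a time gave 9 to 14 members higher and 0 to 1 lower. Over all genes it gave 2132 to 2716 higher and 327 to 535 lower. By class the members were 4 to 7 MMP, 4 to 6 ADAMTS and 0 to 1 TIMP genes higher and 0 to 1 ADAMTS genes lower. The 0 TIMP came without spindle 16 and the 0 lower without muscle 10. The replicate block by mouse gave 11 members higher and 1 lower, beside 2207 and 411 over all genes. Among the members it changed the call of *Mmp17* (0.79) and *Mmp8*, called at 2.08. The difference in TIMP share, -0.057 percentage points, was 3.62 with ADAMTS genes as the only proteases, a move larger than the spread, and between -1.36 and 0.98 without single libraries. *Mmp12*, *Mmp25*, *Mmp27* and *Adamts16* had mean normalized counts under 5, the level that a call requires. The cause of the changes between settings was not tested.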
